A study of Mus musculus with 6 samples.

Results

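Has2 and the genes that make, cut and bind hyaluronan were followed in mouse embryos just after implantation. The set held 8 genes, the synthases Has1, Has2 and Has3, the hyaluronidases Hyal1, Hyal2 and Hyal3, and the receptors Cd44 and Hmmr. Each gene was taken from the array feature that named it alone in the platform annotation. By this rule 7 of the 8 were measured, among 19938 genes in all. Hyal1 was left out, because both features that name it also name Naa80. In the RefSeq gene table of the assembly GRCm38.p6, Hyal2, Hyal1, Naa80 and Hyal3 follow each other. Naa80 overlaps both Hyal1 and Hyal3.

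Hyaluronan is a long, unbranched sugar chain that holds water in the space between cells. Synthases in the plasma membrane build it from UDP-glucuronic acid and UDP-N-acetylglucosamine and push it out of the cell, hyaluronidases cut it, and receptors such as CD44 tie it to the cell surface. Of the synthases, Has2 is the one that mouse embryos cannot do without, since embryos that lack it die at mid-gestation with a heart that has not formed its cushions.

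One group of embryos was grown in narrow cavities of 90 µm diameter and the other in wide cavities of 180 µm. All came from the CD1 strain, an outbred stock, were collected at embryonic day 5.0 and spent 8 hours in culture, and no allele or agent is named in the labels. The study asked what external mechanical cues change, without stating which cavity gives the cue. Each cavity had 3 pools of 30 whole embryos, described as biological replicates and called narrow 1 to 3 and wide 1 to 3 here after the numbers in the titles, so the spread is that between pools. Values are log2 signals from Affymetrix Mouse Gene arrays, and a difference is narrow minus wide on that scale.

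The medians of the 6 arrays lay between 7.62 and 7.67. Narrow 1 and wide 1 stood apart from the other 4 arrays on the first principal component, at -10.6 and -8.01 against 2.76 to 5.87. Markers of the labelled tissue were bright, with Pou5f1 of the epiblast at the 94.4th percentile of gene signal, Eomes of the extraembryonic ectoderm at the 97.6th and Apoa1 of the visceral endoderm at the 99.4th. The leukocyte marker Ptprc (17.4th percentile) and the decidual marker Prl8a2 (13.5th) were dim. Other markers used for these cells were brighter, with Cd68 of blood and immune cells at the 58.3th and Dcn of decidua and stroma at the 60.1th. Such a percentile also depends on the probes of a gene, and without a deposited measure of background a dim gene could not be told from an absent one.

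Has2 drew attention because of its difference between cavities in these same arrays, so its values are given as a description. Nothing is read from its p-values in the fits over all genes. Its log2 signal was 11.31, 11.38 and 11.35 in narrow 1, 2 and 3, against 11.59, 11.56 and 11.51 in wide 1, 2 and 3. The groups did not overlap, and the highest narrow pool lay below the lowest wide pool. All narrow arrays lay below all wide arrays in 3.54% of the 19938 genes. The mean was 11.34 ± 0.036 in narrow and 11.56 ± 0.040 in wide cavities (SD, n = 3 each), a difference of -0.21 ± 0.04 (SE of the limma fit), or 0.863-fold.

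Between arrays that share a number, the difference in Has2 was -0.28 between narrow 1 and wide 1, -0.19 between the arrays numbered 2 and -0.17 between those numbered 3. The pair numbered 1 thus had the largest gap of these 3, and with the arrays numbered 2 and 3 alone the difference was -0.18. Ordered from the most negative difference, Has2 stood 64th of the 19938 genes. The SD of Has2 among replicates, pooled over both cavities, was 0.038, at the 17.6th percentile of all genes. Among pools of 1 cavity Has2 varied less than most genes. Since Has2 was chosen from this contrast, its place and its SD are given as a description. In pools of whole embryos, fewer cells that express Has2 and less Has2 RNA per cell cannot be told apart, and neither can the tissue of origin.

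The sister synthases were dim on these arrays. Has1, which makes hyaluronan in few tissues, had log2 signals of 6.61, 6.73 and 6.75 in narrow 1, 2 and 3, against 6.67, 6.54 and 6.83 in wide 1, 2 and 3. The wide pools enclosed the narrow ones, and wide 3 was the highest and wide 2 the lowest of all. Has3, which makes shorter chains than Has2 in cell culture, had 6.63, 6.67 and 6.61 in narrow pools, against 6.61, 6.61 and 6.75 in wide pools. Wide 3 was again the highest, and the remaining 5 pools lay close together. The differences were 0.02 ± 0.08 for Has1 (95% interval -0.16 to 0.19) and -0.02 ± 0.05 for Has3 (-0.14 to 0.09). Has1 lay at the 27.2th and Has3 at the 26.4th percentile of gene signal, where the lack of a background measure limits what their values can show.

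**Figure D1:**
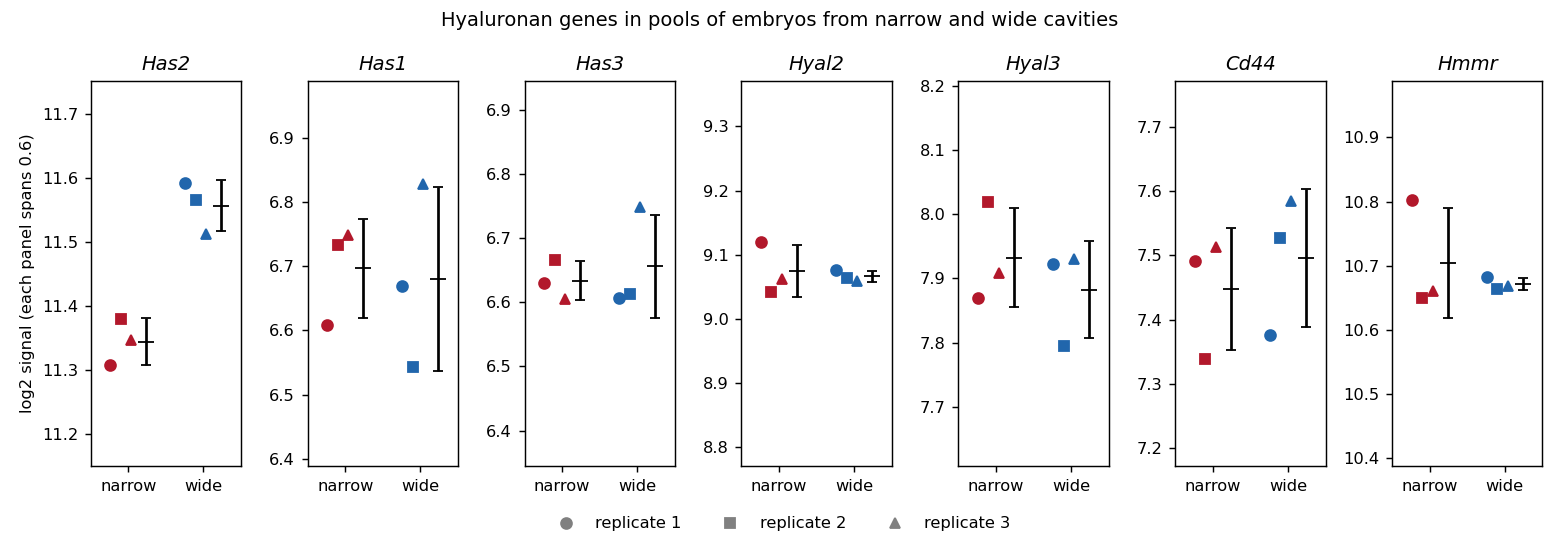
Log2 signal of the 7 measured hyaluronan genes in each pool, narrow cavities (red) left of wide cavities (blue), with the marker shape giving the replicate number and black bars the mean ± SD (n = 3). Every panel spans the same range of 0.6. The groups are apart for Has2 (11.31 to 11.38 in narrow, 11.51 to 11.59 in wide). They overlap for the other 6 genes, as for 18402 of all 19938 genes.

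The groups overlapped for both measured hyaluronidases, as for 18402 of all 19938 genes. Hyal2, an enzyme held at the cell surface that cuts long chains into shorter ones, had log2 signals of 9.12, 9.04 and 9.06 in narrow 1, 2 and 3, against 9.08, 9.06 and 9.06 in wide 1, 2 and 3. Narrow 1 was the highest pool and narrow 2 the lowest, with all wide pools between them. Hyal2 had a difference of 0.0084 ± 0.04 (95% interval -0.085 to 0.10), and its replicate SD of 0.029 was at the 8.69th percentile of genes, so it was among the least variable. Hyal3, a relative of Hyal1 and Hyal2, had 7.87, 8.02 and 7.91 in narrow pools, against 7.92, 7.80 and 7.93 in wide pools. Narrow 2 was the highest and wide 2 the lowest, so the largest gap in either direction fell within the pair numbered 2. The difference in Hyal3 was 0.05 ± 0.06 (-0.08 to 0.18).

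The receptors did not separate the cavities either. Cd44, the main cell-surface receptor for hyaluronan, had log2 signals of 7.49, 7.34 and 7.51 in narrow 1, 2 and 3, against 7.38, 7.53 and 7.58 in wide 1, 2 and 3. Its lowest pools were narrow 2 and wide 1, 1 from each cavity. Cd44 had a difference of -0.05 ± 0.07 (95% interval -0.21 to 0.11), and without narrow 2 the value changed sign to 0.0059. Its replicate SD of 0.10 was at the 80.1th percentile, and that of Has1, 0.11, at the 86.7th.

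Hmmr encodes RHAMM, which binds hyaluronan and also works at the mitotic spindle. Its log2 signal was 10.80, 10.65 and 10.66 in narrow 1, 2 and 3, against 10.68, 10.66 and 10.67 in wide 1, 2 and 3. Narrow 1 alone stood above the rest, which lay within a narrow band. The SD was 0.086 among narrow and 0.0097 among wide pools, and the difference of 0.03 ± 0.05 (95% interval -0.08 to 0.15) became -0.017 without narrow 1. Of 16 mitotic genes listed for comparison, 15 were measured, and 0 of them separated the cavities, where 3.54% of all genes had every narrow array below and 4.17% every narrow array above the wide ones. Their differences ran from -0.05 to 0.08 with a median of 0.009, against 0.001 over all genes. The mean log2 signal of the mitotic list was 11.83 to 11.85 in narrow pools and 11.82 to 11.85 in wide pools, so narrow 1 did not stand out there as it did for Hmmr.

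Over all genes, 0 of 19938 passed limma with Benjamini-Hochberg adjustment at a threshold of 0.05, and hence 0 of the 7 hyaluronan genes, all with an adjusted p of 1.00. Without adjustment, 678 genes (3.40%) had a p under 0.05, and 1446 did when the replicate number was a block. Has2 was the 1 hyaluronan gene among them in both fits. Since it was chosen from this contrast, nothing is read from that count. The unadjusted limma p of the other 6 ran from 0.409 for Hyal3 to 0.841 for Hyal2. These p-values do not show that the genes were equal, and the intervals above give the differences that the pools leave room for. A permutation test of 3 against 3 pools cannot give a p under 0.1.

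**Figure D2:**
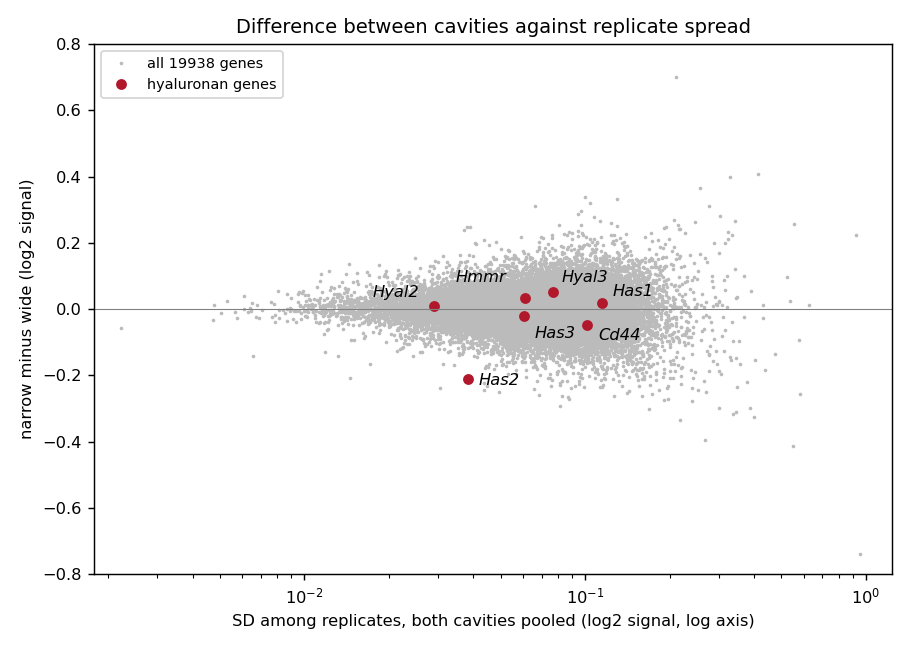
Difference between cavities (narrow minus wide, log2 signal) against the SD among replicates (log axis) for 19938 genes (grey), with the 7 hyaluronan genes in red. Has2 lies at -0.21 with an SD of 0.038, at the lower edge of the grey cloud, and the other 6 lie between -0.05 and 0.05 with SDs from 0.029 to 0.11.

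Other genes of hyaluronan metabolism were taken from 5 lists by role, with 44 of 46 entries measured. Of these 44, 0 passed over all genes. At an unadjusted limma p under 0.05, 1 was higher in narrow cavities, where 1.68% of all genes were, and 0 were lower, where 1.72% were. The median difference was -0.023, against 0.001 over all genes, with 29 negative and 15 positive. The count of 1 in 44 is near the share of genes at large, and no test of the lists was made.

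The 1 gene was Ugdh, which oxidizes UDP-glucose to UDP-glucuronic acid, a building block of hyaluronan and of other glycosaminoglycans. Its log2 signal was 10.96, 11.02 and 10.97 in narrow 1, 2 and 3, against 10.83, 10.87 and 10.91 in wide 1, 2 and 3. All narrow pools lay above all wide pools, as in 4.17% of genes. The difference was 0.12 ± 0.04, with a sign opposite to that of Has2, and limma gave an adjusted p of 1.00. Its unadjusted limma p, 0.0248 with all pools, was 0.0818 without narrow 2, 0.0818 without wide 1 and 0.0591 without wide 2.

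The other 10 measured genes of sugar nucleotide supply overlapped between cavities, as did 18402 of all 19938 genes. Ugp2, which makes the UDP-glucose that Ugdh uses, had a difference of 0.07 ± 0.045. Uap1l1, a relative of Uap1, had -0.04 ± 0.05, and the phosphoglucomutase gene Pgm2 had -0.04 ± 0.05. Gfpt1, which commits fructose-6-phosphate to the hexosamine branch, stood at -0.03 ± 0.06. The mean log2 signal of the supply genes was 10.45 to 10.49 in narrow pools and 10.45 to 10.48 in wide pools.

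Among 8 other genes of hyaluronan breakdown, 7 had a negative difference, and 4 of the 7 were dim. Of all 19938 genes 9781 had a negative difference, a smaller share, and the excess was not tested. Cemip2, a membrane protein reported to cut hyaluronan at the cell surface, had log2 signals of 11.02, 11.05 and 11.09 in narrow 1, 2 and 3, against 11.12, 11.15 and 11.12 in wide 1, 2 and 3. Its groups did not overlap, with the narrow pools below as in 3.54% of all genes, but the difference of -0.07 ± 0.04 had an unadjusted limma p of 0.103. Hexa, a lysosomal enzyme that trims the cut fragments, stood at -0.04 ± 0.05 with overlapping groups. The dim genes Hyal4, Hyal5, Hyal6 and Spam1, the sperm enzyme, lay between the 0.998th and the 12.3th percentile of gene signal, and their differences ran from -0.09 to -0.02.

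Of the 7 other receptors, the innate immune receptor Tlr2, reported to bind hyaluronan fragments, was the 1 whose groups did not overlap, with the narrow pools below as in 3.54% of all genes. It had log2 signals of 8.00, 7.98 and 7.99 in narrow pools, against 8.01, 8.10 and 8.18 in wide pools. Narrow 1 and wide 1 nearly touched, and the difference was -0.11 ± 0.05. Tlr2 had an unadjusted limma p of 0.0617 with all pools. That p was 0.015 without wide 1, 0.13 without narrow 2, 0.127 without wide 2 and 0.222 without wide 3. The scavenger receptor Stab1 had -0.05 ± 0.05, the lymphatic receptor Lyve1 0.03 ± 0.06 and the adhesion molecule Icam1 -0.02 ± 0.05, all with overlapping groups.

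The 10 genes of hyaluronan-binding proteoglycans, link proteins and binding proteins all overlapped between cavities, as did 18402 of all 19938 genes. Their differences ran from -0.10 for the protease Habp2 to 0.09 for the proteoglycan gene Bcan. Acan, which encodes the cartilage proteoglycan aggrecan, had -0.07 ± 0.05, Habp4 -0.08 ± 0.05 and the link protein gene Hapln3 -0.07 ± 0.05. All 8 genes of the inter-alpha-trypsin inhibitor family and its partners, which cross-link hyaluronan in matrices such as that around the ovulated egg, overlapped as well. Their differences stayed between -0.04 and 0.03, with Ptx3 at -0.04 ± 0.05, Itih1 at 0.03 ± 0.06, Itih3 at -0.02 ± 0.06 and Ambp at 0.02 ± 0.04.

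**Figure D3:**
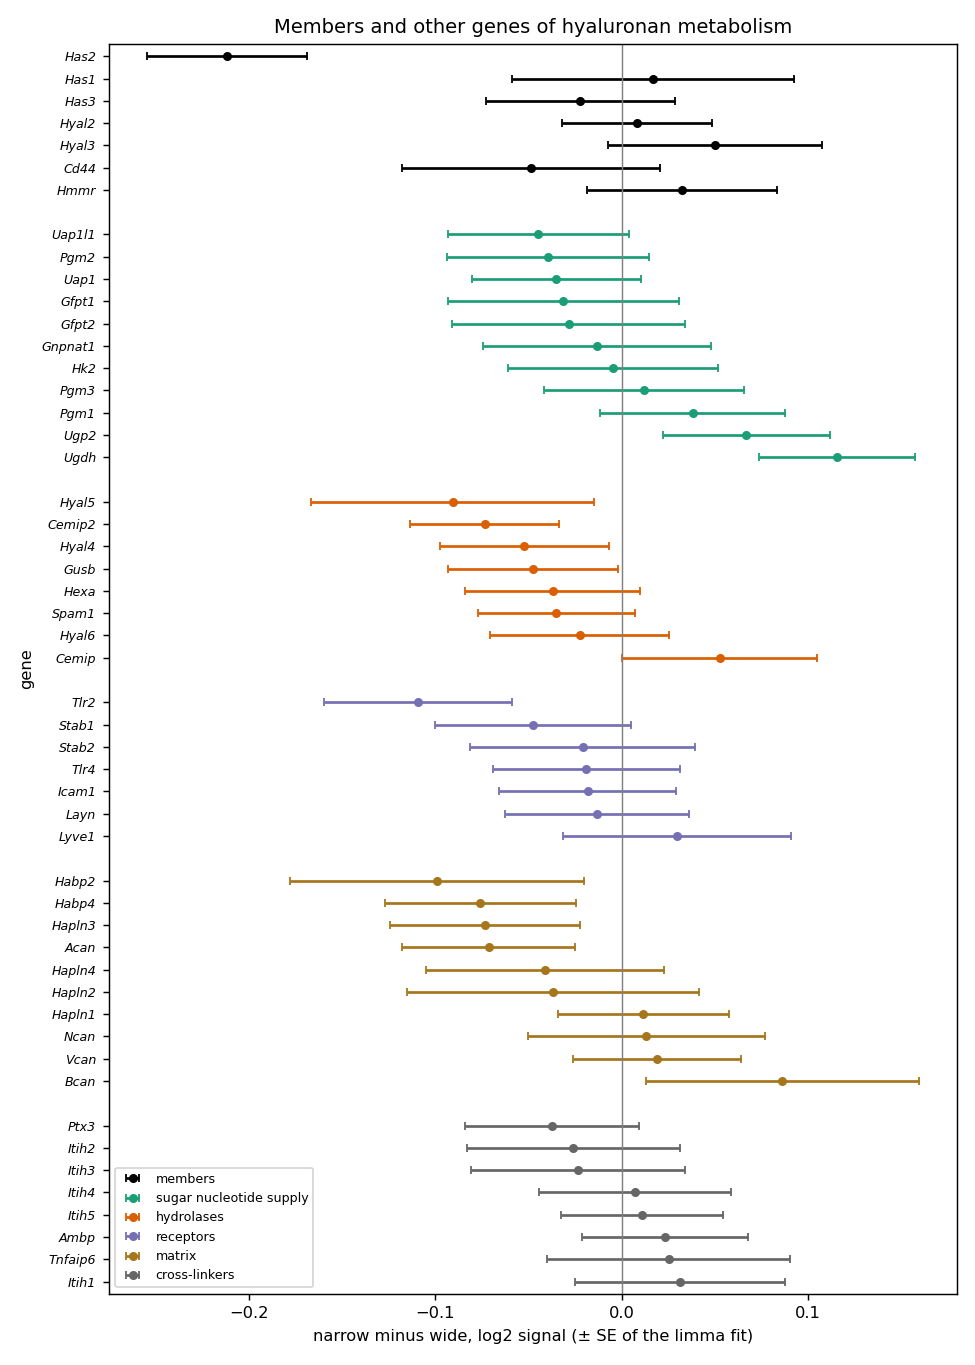
Difference between cavities (narrow minus wide, log2 signal) with its SE for the 7 measured hyaluronan genes at the top (black) and 44 companion genes below, coloured by role. Has2 at -0.21 and Ugdh at 0.12 are the lowest and highest of these genes, and 29 of the 44 companions lie left of 0.

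Genes were also ranked by how closely their 6 values followed those of Has2, among 17075 genes that are not predicted, olfactory, vomeronasal or small RNA genes. The 5 with the highest Pearson r were Psg27, a pregnancy-specific glycoprotein gene (0.995), Syne3, which encodes a nuclear envelope protein (0.985), the transporter gene Slc22a4 (0.984), the homeobox gene Dlx5 (0.983) and the nuclear receptor gene Esrrb (0.981). They are given as a description over 6 arrays, in which the cavities separate for Has2, and 30 of the 17075 genes had an r over 0.95. With each cavity's mean removed, r was 0.949 for Psg27, 0.913 for Slc22a4, 0.816 for Dlx5, 0.792 for Syne3 and 0.785 for Esrrb. These values are not independent of the ranking, which used the same 6 arrays.

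Apart from Esrrb, the genes most like Has2 had smaller differences than Has2. Esrrb had log2 signals of 10.21, 10.26 and 10.18 in narrow 1, 2 and 3, against 10.48, 10.44 and 10.39 in wide 1, 2 and 3, a difference of -0.22 ± 0.04. Psg27, at the 6.19th percentile of gene signal, had a difference of -0.17 ± 0.04. Dlx5 had -0.13 ± 0.04, Slc22a4 -0.10 ± 0.04 and Syne3 -0.03 ± 0.04. In all 5 the narrow pools lay below the wide pools, as a high r with Has2 requires.

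**Figure D4:**
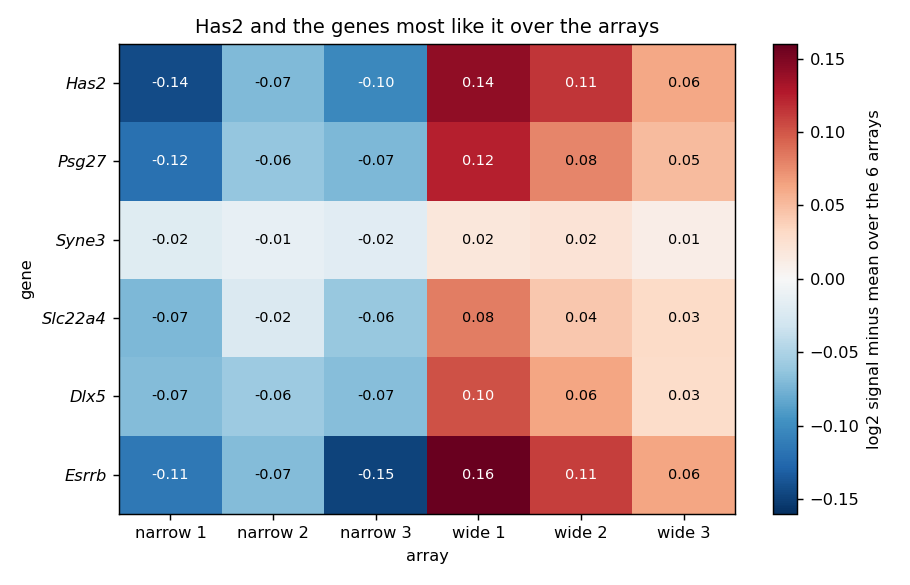
Log2 signal minus the gene's mean over the 6 arrays for Has2 (top row) and the 5 genes with the highest Pearson r with it, narrow arrays left of wide arrays. Each row is negative in the 3 narrow arrays and positive in the 3 wide ones, and the values of Syne3 are close to 0 throughout.

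Esrrb is also one of 6 extraembryonic ectoderm markers used here. Their mean log2 signal was 11.33 to 11.43 in narrow pools and 11.42 to 11.47 in wide pools, and Bmp4, another of the 6, stood at -0.21 ± 0.08. The remaining markers of that list differed in sign, with Cdx2 at -0.10 ± 0.06, Eomes at -0.0007 ± 0.04, Elf5 at 0.04 ± 0.04 and Tfap2c at 0.09 ± 0.05. Esrrb and Bmp4 had all narrow pools below all wide pools, as in 3.54% of genes. Tfap2c had all narrow pools above all wide pools, as in 4.17%, and the other 3 overlapped. Epiblast markers had a mean of 11.04 to 11.16 in narrow and 11.10 to 11.22 in wide pools, and visceral endoderm markers 11.57 to 11.59 in narrow and 11.50 to 11.57 in wide pools. Of the 7 visceral endoderm markers, 4 had a positive and 3 a negative difference. The transferrin gene Trf had 0.18 ± 0.05 with all narrow pools above all wide pools, as in 4.17% of genes. The retinol carrier gene Rbp4 had 0.18 ± 0.09 with overlapping groups. Hnf4a had -0.06 ± 0.04 with all narrow pools below all wide pools, as in 3.54% of genes. The part of tissue shares in the Has2 difference was not tested.

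For the other cell types the means of the pools overlapped between cavities, as for extraembryonic ectoderm and epiblast markers. Those of visceral endoderm markers overlapped too, but by less than the rounding, with narrow 3 and wide 3 both at 11.57. The 8 markers of decidua and stroma had a mean of 7.72 to 7.76 in narrow and 7.71 to 7.76 in wide pools, and the 6 measured of 8 blood and immune markers 6.69 to 6.80 in narrow and 6.73 to 6.98 in wide pools. Parietal endoderm markers had 11.77 to 11.82 in narrow and 11.74 to 11.79 in wide pools. For trophoblast giant cells and the ectoplacental cone, 3 of 5 markers were measured, with a mean of 9.02 to 9.24 in narrow and 8.98 to 9.10 in wide pools.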

How the data were processed

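Total RNA of 6 pools was labelled with biotin for Affymetrix Mouse Gene arrays, per the labels' protocols. The deposited values are log2 signals from 4.33 to 14.31, a scale read from this range. Near-equal array medians show that they had been normalized between arrays. The method is not stated in the sources read, and such scaling hides a change in total RNA per embryo. The number of arrays limits the precision.

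Of 28853 array features, 21789 named 1 gene, 1621 several and 5443 none. For the 999 genes with more than 1 such feature, the brightest on average was kept. Differences were fitted over 19938 genes with limma 3.58.1 in R 4.3.3 (lmFit and eBayes, two-sided, no covariate, no filter), and p-values were adjusted by Benjamini-Hochberg over all genes. The fit was tested on simulated data.

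Members and lists were chosen with earlier results of these data known. Named were all members, the 3 companions with the smallest p and the 1 with the highest signal per list, defining markers, and the 5 genes with the highest r with Has2. Others, including Bcan, Gfpt1, Hyal6, Spam1, Trf, Rbp4, Hnf4a, Cd68, Dcn and the extraembryonic ectoderm markers, were named after their values were seen. Deviations from group means correlated at 0.516, 0.176 and 0.272 between arrays numbered 1, 2 and 3. Narrow 2 with wide 3 reached 0.178, so a pairing by number is clear for number 1 only. The replicate number was therefore used as a block in an alternative fit. The SEs and intervals given come from the fit without that block.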

Additional observations from a re-analysis of the deposited data

How the results depend on the processing

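The fit on the arrays numbered 2 and 3 alone was chosen after seeing the data. The sign of Has2 could not turn when arrays were left out, since its groups do not overlap and it was chosen for this difference. Its difference ranged from -0.23 to -0.19 with 1 array left out and was -0.21 in the fit with the replicate block (adjusted p = 0.636). That block changed no call. By limma 0 genes passed after adjustment under every alternative. The 678 genes at an unadjusted p under 0.05 became 1446 with the block, 384 in the brighter genes only (above the 50th percentile, a smaller set to test) and 497 to 990 with 1 array left out. The 1 companion gene of 44, Ugdh, was joined by Tlr2 in 2 fits. Among brighter genes these were 2 of only 19 companions, beside the 384 genes above. With quantile normalization again they were 2 of 44, where 761 of all 19938 genes had such a p. Leaving out 1 array gave 0 to 2 companions, with 0 without wide 2, Habp2 in place of Ugdh without narrow 2, Tlr2 in its place without wide 1 and Hyal5 beside it without narrow 3. Of 74 values of the other 6 hyaluronan genes 64 kept their sign and 10, none called, changed it. Leaving out 1 array gave -0.11 to 0.0059 for Cd44, -0.052 to 0.091 for Has1, -0.047 to 0.024 for Has3, -0.017 to 0.060 for Hmmr, -0.014 to 0.025 for Hyal2 and 0.0065 to 0.082 for Hyal3. With the arrays numbered 2 and 3 alone Hmmr was at -0.011 and Hyal2 at -0.0091, and with quantile normalization again Hyal2 was at -0.0013. Causes were not tested where not stated. Has1, Has3, Hyal3 and Cd44 were not among the brighter genes and had no value there, and array background, which limits dim genes, was not measured.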
